A study of Mus musculus with 6 samples.

Results

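Mitochondrial complex I was examined here through the genes of its nuclear-encoded subunits and of the Ndufaf assembly factors, in haematopoietic stem cells (HSCs) that had kept or lost a histone label. Members were the genes whose platform symbol begins with Ndufa, Ndufb, Ndufc, Ndufs, Ndufv, Ndufab or Ndufaf and goes on with a digit, each read from whichever of its probe sets had the highest average across the 6 arrays. This gave 44 genes of 18193 on the array, measured by 88 probe sets of 45037. They were 34 structural subunits, 8 assembly factors (Ndufaf1 to Ndufaf8), and Ndufa4 and Ndufa4l2, which carry the name but are not structural subunits. Membership was set by name and used no measured value. Ndufs6 and Ndufa11 had no probe set with their symbol alone and are not among the members.

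The cells came from the bone marrow of SCL-tTA H2B-GFP mice, in which the tTA-S2 transactivator, driven from the endogenous scl locus, switches on a fusion of histone H2B with green fluorescent protein (GFP). Doxycycline turns this system off, and the fusion protein is then diluted at each division. All 6 samples were taken after 170 days of doxycycline, with no age or unlabelled control given, and were gated as lineage-negative, Sca1+, cKit+, CD150+, CD48-negative and CD34-negative cells. The 3 LRC (label-retaining) samples were GFP+ and the 3 non-LRC samples GFP-negative. The labels call the 3 samples of a group independent biological replicates, and they do not say whether a sample was 1 mouse or several. Because scl restricts the transactivator to stem and progenitor cells, a GFP-negative cell may have diluted the label or never carried it. RNA was amplified in 2 rounds before labelling, and each sample was hybridized to 1 array.

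Complex I is the entry point of electrons from NADH into the respiratory chain. Its matrix arm holds an N module, which oxidizes NADH at a flavin and passes electrons along iron-sulfur clusters, and a Q module, where ubiquinone is reduced. Its membrane arm pumps protons, and there the mitochondrially encoded subunits are surrounded by small accessory subunits made in the cytosol. The Ndufaf proteins help to build the complex and are not kept in the finished enzyme. Quiescent HSCs are generally described as relying more on glycolysis than on respiration.

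Nuclear respiratory genes are classically described as targets of the factors NRF1, GABPA, YY1 and the oestrogen-related receptors, so the 250 bases before the start site were searched on both strands in RefSeq promoters (GRCm38.p6), which held 39 of the 44 members. The NRF1 motif, GCGCA and GCGC with any 1 base between them, was present in 5 members (12.8%), against 4.23% of 27025 genes with a promoter there. The motifs CCGGAAGT of GABPA, AAGATGGC of YY1 and TCAAGGTCA of the oestrogen-related receptors were found in 0 of 39 members, and in 3.23%, 1.83% and 0.422% of all genes. The median GC content of these windows was 58.8% in members and 52% in all genes. A match is a description of letters and no measure of binding. Each of the 5 NRF1 matches is shown with its surroundings, 5′ to 3′ on the strand of the gene, with the match in capitals; Ndufb4 had 3 matches, of which 1 is shown.
Ndufa5 (chr6:24527682-24527741, minus strand): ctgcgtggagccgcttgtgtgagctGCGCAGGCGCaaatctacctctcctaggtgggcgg
Ndufa8 (chr2:36049339-36049393, minus strand): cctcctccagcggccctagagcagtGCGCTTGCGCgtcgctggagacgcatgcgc
Ndufaf4 (chr4:24897945-24898004, plus strand): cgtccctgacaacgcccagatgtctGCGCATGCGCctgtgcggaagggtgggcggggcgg
Ndufb4 (chr16:37654413-37654472, minus strand): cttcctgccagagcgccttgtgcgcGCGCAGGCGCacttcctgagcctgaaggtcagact
Ndufs5 (chr4:123718250-123718309, minus strand): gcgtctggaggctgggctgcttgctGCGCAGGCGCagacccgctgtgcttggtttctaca
The expression differences of these 5 genes between the groups, LRC minus non-LRC on the log2 scale, were 0.06, -0.51, -0.10, -0.50 and 0.10 in the order shown, with values of both signs. That of Ndufb4 had a standard error (SE) of 1.01 and rested on 1 array, non-LRC 3.

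No complex I gene passed the threshold of the comparison between LRC and non-LRC. With limma (adjusted p under 0.05 over all probe sets), 0 of 44 members were called, as were 0% of all genes, and members had adjusted p-values of 0.998 to 1.000. At an unadjusted p under 0.05, 0 members were called, against 3.75% of all genes (2.02% lower and 1.73% higher in LRC). The difference, LRC minus non-LRC in log2 units, had a median of -0.075 over the 34 subunits, -0.041 over the 8 assembly factors and 0.034 over all genes. Of the subunits 20 (58.8%) had the lower mean in LRC, against 45.1% of all genes and 49.6% of the 12455 genes whose mean reached the 40th percentile of probe sets. The count moved with the setting, in both directions. With the brightness of the hybridization controls as covariate 12 of 34 subunits were lower (57% of all genes) and the median was 0.039. With non-LRC 3 left out 17 were lower (46.3% of all genes) and the median was 0.015. With array weights 23 were lower (44.7% of all genes) and the median was -0.096. In 26 of the 44 members the difference was smaller than 0.25 in either direction, and in 7 it was larger than 0.5. The standard error of a subunit's difference had a median of 0.32, and 26 of 34 subunits and 6 of 8 assembly factors differed by less than their own standard error.

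**Figure D1:**
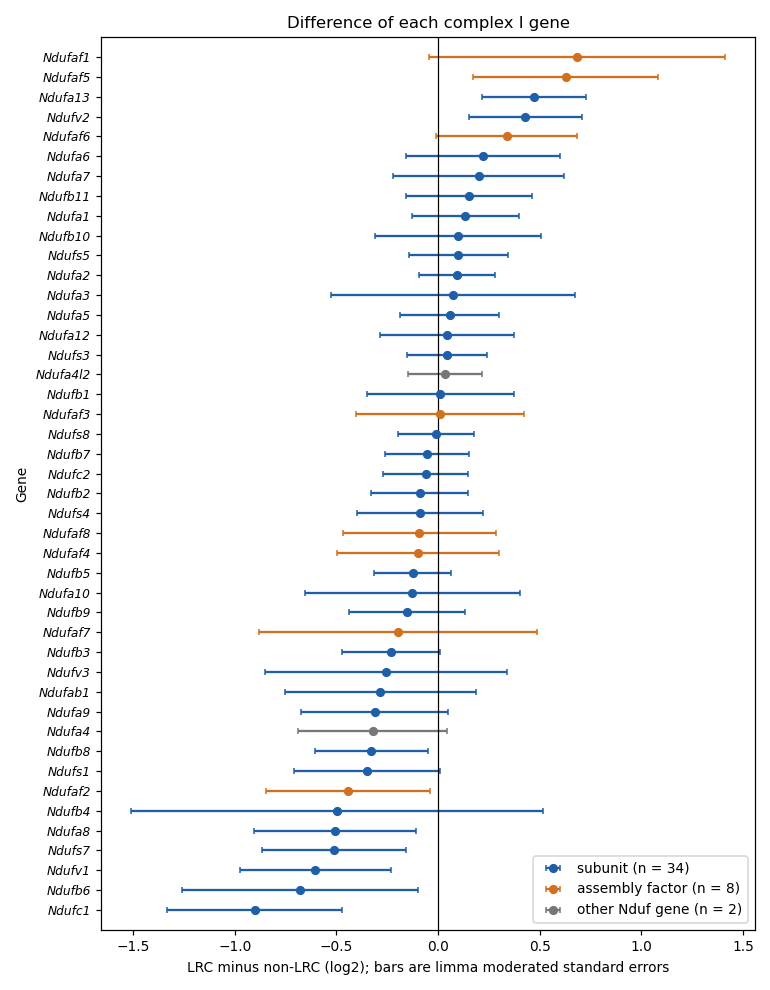
Difference between LRC and non-LRC for each of the 44 complex I genes (horizontal axis, log2, LRC minus non-LRC; points are differences of group means over 3 arrays each, bars are limma's moderated standard errors), ordered by size and coloured by class. The differences run from -0.90 for Ndufc1 to 0.68 for Ndufaf1, and the bars of 34 of the 44 genes cross 0.

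The arrays were alike in scale, with medians of 4.33 to 4.39 (log2), and correlated with each other at 0.901 to 0.970 across probe sets; LRC 1 correlated least with the rest (0.901 to 0.919). The hybridization controls, bacterial and phage transcripts added to each sample, averaged 11.24 on LRC 1 and 11.02 on LRC 3, against 10.58 to 10.70 on the other 4 arrays. The 3′ minus 5′ signal of Gapdh, a measure of RNA integrity, was 4.16 on LRC 1 and 2.72 to 3.42 elsewhere, but the 3′ minus middle signal of Gapdh was lowest on LRC 1 (1.74, against 1.86 to 2.25), and the 3′ minus 5′ signal of actin stood apart on LRC 3 instead (-0.61, against -0.23 to -0.036). The 10 HSC markers measured had group means between 5.21 and 11.31, and their average was lowest on LRC 1 (8.32, against 8.65 to 9.02 elsewhere). Of the genes of the gate, Kit was at 9.07 ± 0.07 on the LRC arrays and 9.05 ± 0.06 on the non-LRC arrays (SD, n = 3 each), while Slamf1, which encodes CD150, spread from 6.24 to 8.83 and from 7.20 to 8.48. Of these 10 HSC markers 5 had the lower mean in LRC and 5 the higher. Tek and Hoxb5 differed most downward, by -1.49 (SE 0.94) and -0.86 (SE 0.64). Fgd5 and Hlf differed most upward, by 0.40 (SE 0.25) and 0.38 (SE 0.21). The T and NK cell markers averaged 2.73 to 3.21 over 9 genes, near the floor of the array. The averages over 9 erythroid markers ran from 4.32 to 4.78 in LRC and from 4.24 to 5.77 in non-LRC, and those over 10 myeloid markers from 5.51 to 6.39 and from 5.99 to 6.91. The averages over 10 megakaryocyte markers ran from 5.30 to 5.74 and from 5.38 to 6.18, over 9 B cell markers from 3.77 to 4.30 and from 3.88 to 3.94, and over 10 stromal and endothelial markers from 4.30 to 4.70 and from 4.33 to 4.92. These averages hide single markers that stood apart on 1 array, named here after their values were seen. On LRC 1, Vpreb1 was at 9.58 (4.96 to 6.84 elsewhere) and Mpo at 4.03 (7.57 to 9.20 elsewhere). On non-LRC 1, Car1 was at 7.34 (3.08 to 3.98 elsewhere) and S100a8 at 8.27 (4.27 to 5.74 elsewhere). Over 13 proliferation genes the array averages did not overlap, at 6.22 to 7.33 in LRC and 7.57 to 7.96 in non-LRC. Whether these quantities contribute to the values of the complex I genes was not tested. In bulk samples fewer cells of a type and less RNA per cell cannot be told apart.

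The N module gave core subunits of both signs. Ndufv1, the flavoprotein that binds NADH, had log2 values of 7.43, 8.42 and 8.32 in LRC and 8.58, 8.23 and 9.18 in non-LRC. LRC 1 was low, while the other LRC arrays lay within the non-LRC range. The difference was -0.60 (SE 0.37, 95% interval -1.50 to 0.29, adjusted p = 0.998), or -0.29 without LRC 1, -0.35 without non-LRC 3 and -0.14 with the covariate, and 1 of the 2 other probe sets had its sign. Ndufv2, its partner with a 2Fe-2S cluster, was at 8.58, 9.06 and 8.78 in LRC and at 7.89, 8.55 and 8.69 in non-LRC. Of the LRC arrays, only LRC 1 overlapped the non-LRC range; the difference was 0.43 (SE 0.28, 95% interval -0.24 to 1.10), or 0.19 without non-LRC 1 and 0.10 as the mean of its probe sets, and 1 of 2 other probe sets had the same sign. Ndufs1, the largest subunit and carrier of several iron-sulfur clusters, was at 6.46, 7.46 and 6.61 in LRC and 7.70, 7.01 and 6.88 in non-LRC, giving a difference of -0.35 (SE 0.36), or -0.16 without LRC 1 and -0.098 without non-LRC 1. For Ndufs1, LRC 2 lay inside the non-LRC range and the other LRC arrays below it.

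The 6 accessory subunits of the N module differed by -0.26 to 0.22, with a median of 0.07 and 2 of 6 lower in LRC. Ndufa6, a small protein of the LYR family that binds the acyl carrier, was at 7.96, 9.26 and 9.20 in LRC against 8.48, 8.63 and 8.66 in non-LRC. Its LRC arrays thus lay on both sides of a narrow non-LRC range, and the difference was 0.22 (SE 0.38). Ndufa2, a thioredoxin-like subunit, varied little, at 10.88, 10.52 and 10.60 in LRC and 10.63, 10.56 and 10.52 in non-LRC, with a difference of 0.09 (SE 0.19, 95% interval -0.36 to 0.54). Ndufs4, whose loss in mice causes a Leigh-like encephalopathy, differed by -0.09 (SE 0.31). Ndufv3 had 1 high array, non-LRC 3 at 11.65, while the other 5 ran from 9.35 to 10.32.

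In the Q module, Ndufs8 and Ndufs3 were the steadiest core subunits. Ndufs8, which holds iron-sulfur clusters on the way to ubiquinone, was at 8.69, 8.71 and 8.73 in LRC and 8.71, 8.52 and 8.93 in non-LRC, giving a difference of -0.01 (SE 0.19, 95% interval -0.47 to 0.44). Ndufs3, a scaffold of the early Q module, was at 7.97, 7.86 and 7.53 in LRC and 7.70, 7.70 and 7.83 in non-LRC, giving a difference of 0.04 (SE 0.20). For Ndufs8 every LRC array lay within the non-LRC range. For Ndufs3 the LRC arrays lay on both sides of a narrow non-LRC range. Ndufs7, which carries the cluster that hands electrons to ubiquinone, was at 8.58, 9.58 and 9.60 in LRC and 10.19, 9.64 and 9.48 in non-LRC. LRC 1 stood apart below the other 5 arrays; the difference was -0.51 (SE 0.36, 95% interval -1.37 to 0.35), and its 1 other probe set had the same sign. Without LRC 1 the difference of Ndufs7 was -0.18. The accessory subunits Ndufa9, an NAD(P)-binding protein at the hinge of the arms, and Ndufa5 differed by -0.31 (SE 0.36) and 0.06 (SE 0.24).

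**Figure D2:**
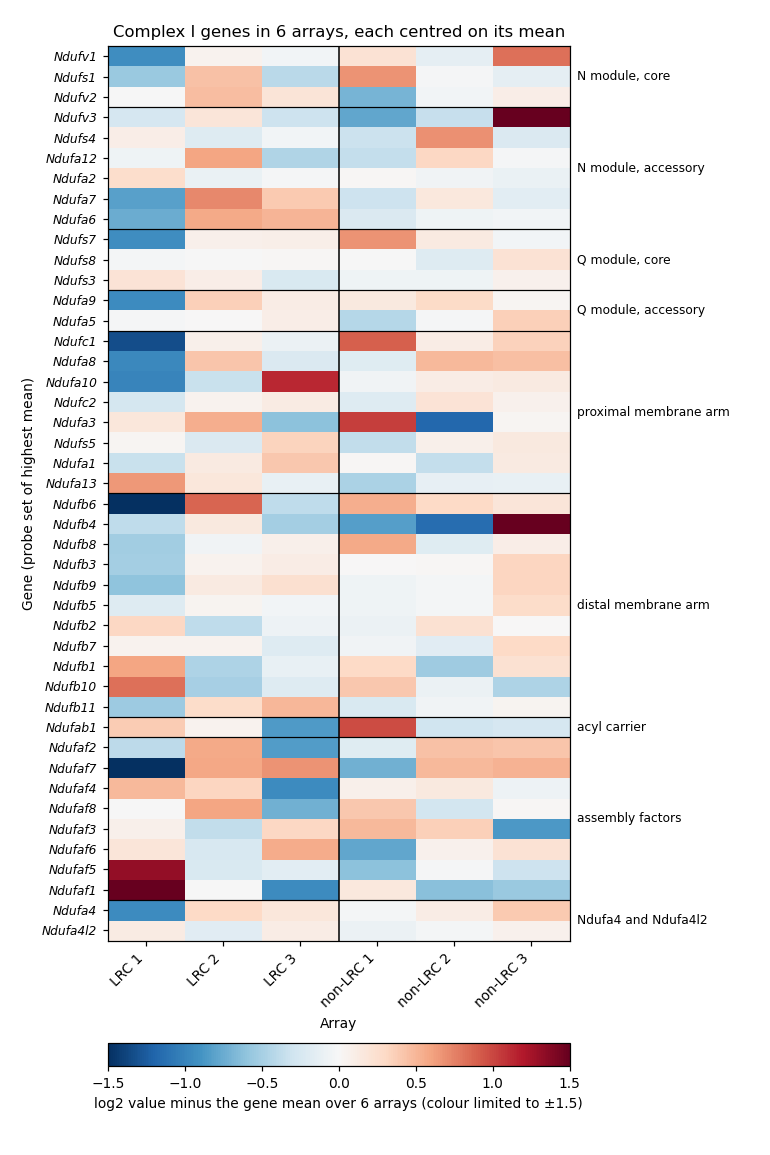
Log2 values of the 44 complex I genes (rows, grouped by module or class) on the 6 arrays (columns), each row centred on its own mean; blue is below and red above that mean, with the colour limited to 1.5 either way. LRC 1 holds the darkest blue cells among the subunits, such as Ndufb6 at 6.45 and Ndufc1 at 8.52, and the darkest red cells among the assembly factors, Ndufaf1 at 6.86 and Ndufaf5 at 8.65.

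The proximal membrane arm held the only members whose groups did not overlap, 1 in each direction, or 2 of 44 members against 8.32% of all genes (3.62% with LRC below and 4.71% with LRC above) and 8.89% of the genes at or above the 40th percentile. Ndufc1, a small single-pass subunit, was at 8.52, 9.92 and 9.76 in LRC and 10.75, 9.96 and 10.19 in non-LRC. Every LRC array lay below every non-LRC array, but the gap between the groups was 0.036, far smaller than the SD within either group (0.77 and 0.41). The difference was -0.90 (SE 0.43, 95% interval -1.94 to 0.14, unadjusted p = 0.0792 and adjusted p = 0.998 by limma), the largest of any member, and the sign was opposite in its other probe set (0.27). Without LRC 1 it was -0.46.

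Ndufa13, also known as GRIM-19, an inner-membrane subunit described as binding STAT3, was at 11.12, 10.65 and 10.37 in LRC and 10.002, 10.36 and 10.37 in non-LRC. The lowest LRC array exceeded the highest non-LRC array by 0.00070. The difference was 0.47 (SE 0.26, 95% interval -0.15 to 1.09, unadjusted p = 0.114, adjusted p = 0.998), and it was 0.27 without LRC 1. Ndufa8, an intermembrane-space subunit with twin CX9C motifs, was at 6.42, 7.81 and 7.18 in LRC and 7.21, 7.88 and 7.85 in non-LRC, giving a difference of -0.51 (SE 0.40) that was -0.15 without LRC 1. Its LRC 2 value lay among the non-LRC values. Ndufa1, an X-linked single-pass subunit, differed by 0.13 (SE 0.26) and its groups overlapped, with LRC at 9.03, 9.50 and 9.77 and non-LRC at 9.38, 9.01 and 9.51. Over all 8 subunits of the proximal arm, 4 were lower in LRC and the median difference was 0.0059.

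The upstream sequences of Ndufc1 and Ndufa13, the pair whose groups did not overlap, are shown as the 250 bases before the annotated start (RefSeq, GRCm38.p6, 5′ to 3′ on the strand of the gene). None of the 4 motifs is in either, so no base is in capitals; their GC contents are 59.6% and 64%.
Ndufc1 (chr3:51408956-51409205, minus strand): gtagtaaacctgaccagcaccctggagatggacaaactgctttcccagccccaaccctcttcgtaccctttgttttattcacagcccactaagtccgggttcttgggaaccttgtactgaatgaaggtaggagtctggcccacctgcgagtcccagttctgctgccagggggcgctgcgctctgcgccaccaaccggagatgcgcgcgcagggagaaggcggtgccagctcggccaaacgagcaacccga
Ndufa13 (chr8:69902021-69902270, minus strand): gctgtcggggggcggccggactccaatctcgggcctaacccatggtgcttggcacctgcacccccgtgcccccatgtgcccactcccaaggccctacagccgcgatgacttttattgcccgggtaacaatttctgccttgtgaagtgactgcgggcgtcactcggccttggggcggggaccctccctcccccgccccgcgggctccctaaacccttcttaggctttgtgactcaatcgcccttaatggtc

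In the distal membrane arm, 8 of 11 subunits were lower in LRC, against 45.1% of all genes. The median difference was -0.13 and the range -0.68 to 0.15. Ndufb6 spread most within LRC, at 6.45, 8.84 and 7.58, while its non-LRC values were 8.50, 8.25 and 8.14. LRC held both the highest and the lowest array, and the difference of -0.68 (SE 0.58) was -0.09 without LRC 1; its other probe set had the same sign. Ndufb8, whose protein is a common marker of assembled complex I, was at 8.14, 8.61 and 8.74 in LRC and 9.23, 8.48 and 8.76 in non-LRC. These groups overlapped, the difference was -0.33 (SE 0.28; -0.15 without LRC 1 and -0.13 without non-LRC 1), and the sign was opposite in its other probe set (0.82). The chosen probe set of Ndufb4 lay near the floor of the array on 5 arrays (2.26 to 3.55) and at 6.12 on non-LRC 3. Its difference of -0.50 (SE 1.01) thus rests on 1 array. Probe sets shared by Ndufb4, Ndufb4b and Ndufb4c, left out of the members, were brighter, at 6.43 to 8.26 and at 6.46 to 8.75. Ndufb7 and Ndufb5 were among the steadiest members, with differences of -0.06 (SE 0.21) and -0.13 (SE 0.19). Ndufb2, Ndufb3, Ndufb9, Ndufb1, Ndufb10 and Ndufb11 had differences between -0.23 and 0.15. The 2 other probe sets of Ndufb2, somewhat dimmer, differed by 0.72 (SE 0.32) and 0.69 (SE 0.28), opposite in sign to the chosen one (-0.09). Ndufab1, the mitochondrial acyl carrier protein, which also serves fatty acid and iron-sulfur cluster synthesis, was at 8.32, 7.99 and 7.09 in LRC and 8.92, 7.65 and 7.70 in non-LRC. The difference was -0.28 (SE 0.47), and the 4 other probe sets of the gene shared its sign.

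The 8 assembly factors split evenly, with 4 lower and 4 higher in LRC, and 0 had groups that did not overlap. Ndufaf1, a chaperone of the early membrane arm, was at 6.86, 4.89 and 3.95 in LRC and 5.05, 4.26 and 4.33 in non-LRC. LRC held the highest and the lowest array, and the difference of 0.68 (SE 0.73) was -0.13 without LRC 1. Ndufaf5, which hydroxylates an arginine of Ndufs7, was at 8.65, 7.11 and 7.18 in LRC and 6.72, 7.32 and 7.03 in non-LRC. Again LRC 1 alone stood above the rest; the difference was 0.63 (SE 0.45) with all arrays and 0.12 without LRC 1. Ndufaf7, a methyltransferase, showed the opposite on that array, at 4.74, 6.86 and 6.96 in LRC and 5.57, 6.78 and 6.80 in non-LRC, with a difference of -0.20 (SE 0.68) or 0.53 without LRC 1.

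LRC 3 was the low array for other assembly factors. Ndufaf2, a paralogue of Ndufa12 that sits on the late intermediate, was at 8.45, 9.41 and 8.001 in LRC and 8.66, 9.28 and 9.26 in non-LRC, giving a difference of -0.44 (SE 0.40) that was -0.13 without LRC 3 and -0.84 without LRC 2 (unadjusted p = 0.0367 by limma). Ndufaf4, an early partner of Ndufaf3, was at 8.14, 7.97 and 6.71 in LRC and 7.74, 7.80 and 7.58 in non-LRC, giving a difference of -0.10 (SE 0.40) that was 0.35 without LRC 3. Ndufaf8, the partner that stabilizes Ndufaf5, was at 8.77, 9.36 and 8.05 in LRC and 9.17, 8.50 and 8.79 in non-LRC, giving a difference of -0.09 (SE 0.38), or 0.25 without LRC 3. In these 3 genes LRC 3 was the lowest of all 6 arrays. Ndufaf3 and Ndufaf6, a member of the phytoene synthase fold, had overlapping groups, in part for Ndufaf6, with differences of 0.01 (SE 0.41) and 0.34 (SE 0.35; 0.032 without non-LRC 1 and 0.14 without LRC 3); LRC values were 4.74, 4.29 and 4.97 for Ndufaf3 and 5.08, 4.66 and 5.46 for Ndufaf6, and non-LRC values 5.15, 5.02 and 3.80, and 4.12, 4.96 and 5.11.

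Ndufa4, first purified with complex I and since assigned to cytochrome c oxidase, was at 7.77, 9.01 and 8.88 in LRC and 8.69, 8.83 and 9.11 in non-LRC. Only LRC 1 lay outside the non-LRC range, and the difference was -0.32 (SE 0.37), or 0.07 without LRC 1. Its hypoxia-inducible paralogue Ndufa4l2 was nearly level, at 5.17, 4.87 and 5.16 in LRC and 4.96, 5.03 and 5.11 in non-LRC, with a difference of 0.03 (SE 0.18, 95% interval -0.41 to 0.47).

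Subunits and assembly factors were set against each other by their mean on each array. The mean over the 34 subunits was 8.44, 8.86 and 8.72 on the LRC arrays and 8.76, 8.68 and 8.95 on the non-LRC arrays. The mean over the 8 assembly factors was 6.93, 6.82 and 6.41 on the LRC arrays and 6.52, 6.74 and 6.59 on the non-LRC arrays. LRC 1 had the lowest subunit mean and the highest Ndufaf mean of the 6 arrays. It was also the lowest array for the 14 assembly factors outside the Ndufaf family (5.92), complex III (7.84), complex IV (8.74), ATP synthase (9.36), the regulators of mitochondrial biogenesis (6.54) and the HSC markers (8.32), so a low mean there was not limited to the subunits. Complex II was an exception, with non-LRC 2 lowest (7.26) and LRC 1 at 7.35. The high Ndufaf mean was not shared by all 8 genes. LRC 1 held the highest value of 3 and the lowest of 1, and only Ndufaf1 (6.86) and Ndufaf5 (8.65) stood far above the other arrays. The median deviation of the 8 genes from their own medians was 0.026 on LRC 1 and 0.14 on LRC 2. The subunit mean minus the assembly factor mean was 1.52, 2.04 and 2.31 in LRC (1.96 ± 0.40, SD, n = 3) and 2.23, 1.94 and 2.36 in non-LRC (2.18 ± 0.22, SD, n = 3), a group difference of -0.22. The groups overlapped, and the group difference was smaller than the spread within LRC. The group difference was -0.0030 without LRC 1, -0.40 without LRC 3 and -0.14 with only LRC 2 kept of the LRC arrays. The size of the contrast between the classes thus depended on which LRC arrays were kept. No test was made on these means, since their members were chosen by name as a group.

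**Figure D3:**
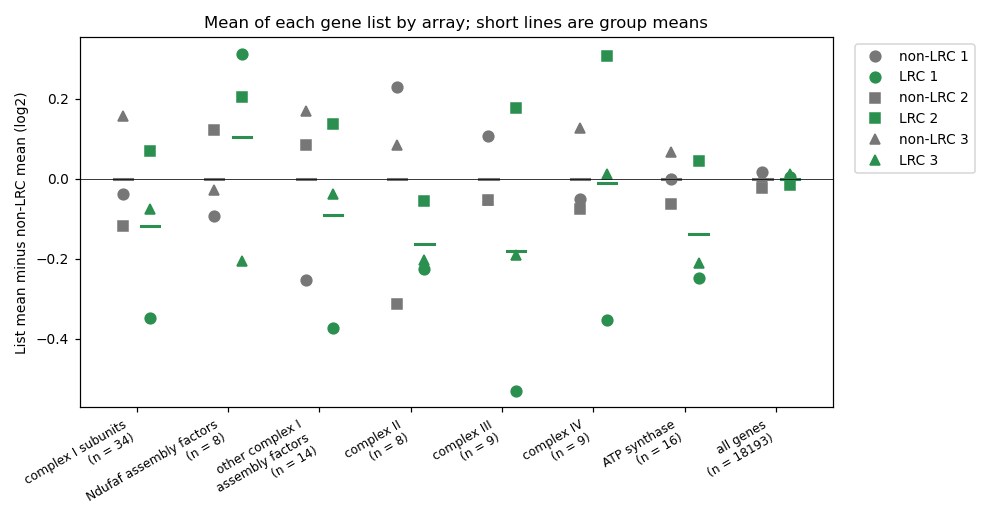
Mean of each gene list on each array (vertical axis, log2, minus the non-LRC group mean of the list; green for LRC and grey for non-LRC, with one symbol per replicate number and short lines for group means). LRC 1 is the lowest array for the complex I subunits (8.44) and the highest for the Ndufaf assembly factors (6.93), while the mean over all genes is level.

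The array that held the lowest of a gene's 6 values was LRC 1 in 16 of 34 subunits (47.1%), against 18.3% of all genes and 24.1% of genes at or above the 40th percentile. Among the assembly factors it was LRC 1 in 1 of 8, and LRC 3 in 4 of 8. Non-LRC 3 held the lowest value of 0 subunits and the highest of 9 (26.5%, against 11.3% of all genes). The SD was larger in LRC than in non-LRC in 22 of 34 subunits (64.7%) and 6 of 8 assembly factors, against 62.8% of all genes. The median SD of a subunit was 0.42 in LRC and 0.27 in non-LRC, that of an assembly factor 0.75 and 0.39, and that of all genes 0.35 and 0.27. LRC 1 was also the array with the brightest hybridization controls and the largest 3′ minus 5′ signal of Gapdh; the part of either in the low subunit values was not tested. Without LRC 1, the number of subunits lower in LRC was 20 of 34, with a median difference of -0.040, while the share over all genes went from 45.1% to 51.6% and their median from 0.034 to -0.011.

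**Figure D4:**
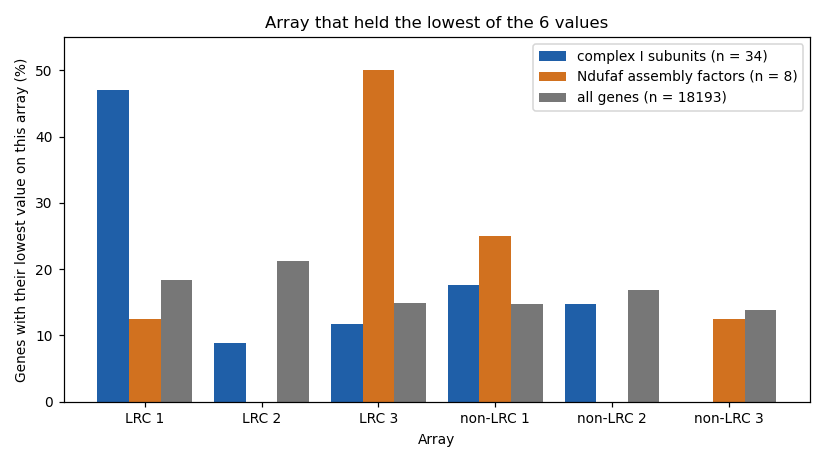
Share of genes whose lowest value fell on each array (vertical axis, percent of genes; bars for complex I subunits, Ndufaf assembly factors and all genes). For the subunits the bar of LRC 1 reaches 47.1%, against 18.3% for all genes.

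Other probe sets of the same genes gave a second reading, which the choice of the brightest probe set did not use but which shares the same RNA. There were 44 such probe sets for 22 genes, and 23 of them had the sign of the chosen probe set. All others shared the sign in Ndufab1, Ndufaf4, Ndufb5, Ndufb6, Ndufc2 and Ndufs7, and none did in Ndufa10, Ndufa5, Ndufaf8, Ndufb2, Ndufb7, Ndufb8 and Ndufc1. Of the 44, 2 had an unadjusted p under 0.05, against 3.71% of all probe sets, both of the sign opposite to the chosen probe set and both singled out after their values were seen. That of Ndufb7 was at 7.75, 8.54 and 8.15 in LRC and 7.20, 7.03 and 7.80 in non-LRC, groups that overlapped (difference 0.81, SE 0.30, unadjusted p = 0.0365, adjusted p = 0.998 by limma). That of Ndufb8 had an unadjusted p of 0.0374 (adjusted p = 0.998 by limma), with 5.15, 4.90 and 4.11 in LRC above 3.65, 4.03 and 4.005 in non-LRC.

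**Figure D5:**
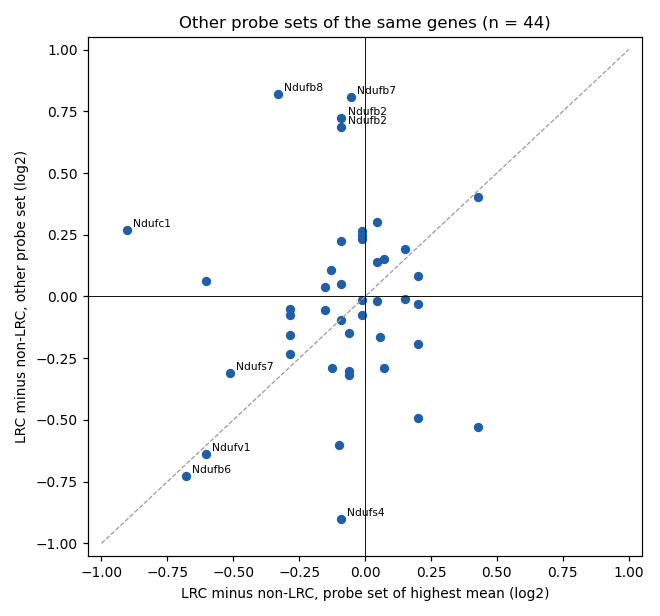
Difference between LRC and non-LRC in the other 44 probe sets of complex I genes (vertical axis, log2) against the difference in the probe set of highest mean of the same gene (horizontal axis, log2); the dashed line marks equality. Of the points, 23 lie in a quadrant of like sign, and the Ndufc1 point lies at -0.90 and 0.27.

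A further 10 probe sets carry a complex I symbol together with that of another gene or pseudogene, and were left out of the members. Among them a probe set shared by Ndufa11, a subunit at the junction of the membrane arm, and Ndufa11b had 5.83, 6.26 and 5.81 in LRC and 6.98, 6.57 and 6.57 in non-LRC. Every LRC array lay below every non-LRC array, with a difference of -0.74 (SE 0.23, unadjusted p = 0.0159, adjusted p = 0.998 by limma). The other probe set of this pair differed by 0.44. A probe set shared by Ndufb4, Ndufb4b and Ndufb4c differed by -0.96 (SE 0.39, unadjusted p = 0.0452), and the second of that trio by 0.06. These were singled out after their values were seen, and stand against 3.71% of all probe sets at an unadjusted p under 0.05 and 8.28% with groups that do not overlap.

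The rest of the respiratory chain was read from lists of its genes, with limma again calling 0 genes at the adjusted threshold and, in the lists of complexes II to IV, ATP synthase and other assembly factors, 0 at an unadjusted p under 0.05. Of the ATP synthase genes 13 of 16 were lower in LRC (median difference -0.12) and of complex II genes 5 of 8 (-0.19). Of complex III genes 6 of 9 were lower (-0.063) and of complex IV genes 3 of 9 (0.019). The share was 45.1% over all genes (median 0.034) and 49.6% over genes at or above the 40th percentile. Complex I subunits, at 20 of 34, lay inside the range of these lists. The lists are not of like make-up, since that of complex II also holds the assembly factors Sdhaf1 to Sdhaf4. The genes of smallest p were Sdhaf4, an assembly factor of complex II (-1.26, SE 0.69), Uqcrc2, a core protein of complex III (-0.82, SE 0.42), Cox7a2 of complex IV (-0.72, SE 0.32) and Atp5e, the epsilon subunit of ATP synthase (-0.68, SE 0.34). Uqcrc2 was at 8.63, 10.16 and 9.52 in LRC and 10.32, 9.92 and 10.55 in non-LRC, so that LRC 1 was its lowest array as it was for Ndufc1 and Ndufb6.

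Complex I assembly factors outside the Ndufaf family, such as Acad9 and Ecsit, had 7 of 14 members lower in LRC and a median difference of -0.067. Tmem70, which acts in the assembly of both complex I and ATP synthase, had the smallest p of that list, at 5.48, 7.17 and 5.58 in LRC and 6.71, 7.20 and 7.01 in non-LRC (difference -0.90, SE 0.48). LRC 1 and LRC 3 lay below all other arrays and LRC 2 among them. Of 15 regulators of mitochondrial biogenesis 8 were lower in LRC, with a median of -0.066. Over all genes 45.1% were lower, with a median of 0.034. Ppargc1a, a coactivator of mitochondrial genes, was named after its values were seen: it was at 4.14, 4.74 and 4.75 in LRC and 3.84, 3.85 and 3.56 in non-LRC. Its groups did not overlap, with a difference of 0.79 (SE 0.24, unadjusted p = 0.0155, adjusted p = 0.998 by limma). The Ppargc1a signal was weak, since the 40th percentiles of the arrays were 3.71 to 3.80 and their medians 4.33 to 4.39. Polrmt, the mitochondrial RNA polymerase, likewise named after its values were seen, had groups without overlap, in the other direction, at 2.60, 4.76 and 4.63 in LRC and 7.19, 5.004 and 5.04 in non-LRC (difference -1.75, SE 0.82, adjusted p = 0.998 by limma). Of the 15 regulators these 2 had groups without overlap and 1 an unadjusted p under 0.05, against 8.32% and 3.75% of all genes. Nrf1, whose protein binds the motif shown above, differed by 0.07 (SE 0.35).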

How the data were processed

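Expression was measured on 1 array per sample in 3 LRC and 3 non-LRC samples. The authors deposited log2 values, 1 per probe set and sample. The submitters' processing notes name RMA without a version; that the base is 2 was read from how far the values range. Quantile normalization, part of RMA, hides a change of total RNA per cell. The array holds 45101 probe sets, and its 64 controls took no part in the tests. Symbols came from the platform annotation: 34945 probe sets had 1 symbol, 932 several and 9160 none. Columns of other samples numbered 0. The test was limma 3.58.1 (R 4.3.3), by lmFit and eBayes without covariates, with Benjamini-Hochberg adjustment over all probe sets; intervals are 95% and moderated. Lists are described by counts and medians only: of 166 entries in 14 lists of other genes, 151 were measured. Members and lists were chosen with earlier results of these data known. Named with values were the core subunits among the members, all Ndufaf genes, Ndufab1, Ndufa4 and Ndufa4l2, and the 4 others of smallest p in each direction, 25 genes, and the 1 gene of smallest p in each list of the other complexes and of other assembly factors. Further members are given where they show a range or a single high array. Motifs and promoters were chosen after the values were seen. Fits were tested on simulated data. With no read depth on arrays, precision is limited by how many there are.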

Additional observations from a re-analysis of the deposited data

How the results depend on the processing

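Limma called 0 of 45037 probe sets in the fit and under every alternative run on it; 1673 had an unadjusted p under 0.05. Under the alternatives, 25 named genes gave 335 values, of which 39, in 19 genes, had the opposite sign; the cause was not tested. The subunit count lower in LRC was 17 to 22 when single arrays were left out (median difference -0.13 to 0.015, the latter without non-LRC 3). It was 12 with the brightness of the hybridization controls as covariate (median 0.039), 23 with array weights (median -0.096) and 16 with only LRC 2 kept of the LRC arrays. For assembly factors, leaving out single arrays gave 3 to 5 lower and medians of -0.069 to 0.19 (the higher without LRC 3; 0.099 with array weights and 0.085 with the covariate), and keeping only LRC 2 gave 2 lower and a median of 0.30. Subunits minus assembly factors ranged from -0.40 to -0.0030. Members without overlap numbered 1 with each gene read as the mean of its probe sets, against 7.66% of all genes. They numbered 3 to 7 without single arrays and 19 with only LRC 2 kept, where fewer arrays make separation easier (15.8% to 26.7% and 47.8% of all genes). Members at an unadjusted p under 0.05 numbered 1 with the covariate (3.13% of all probe sets), 2 without LRC 1 (3.69%), 2 without LRC 2 (7.11%), 1 without LRC 3 (3.6%), 0 without any single non-LRC array (3.19% to 3.49%) and 2 with only LRC 2 kept (3.43%). That last setting, like counting Ndufa4 and Ndufa4l2 as subunits, was chosen after seeing the data, and it assumes that the lone array varies like the others.

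With the covariate, signs were opposite for Ndufs1 (0.080), Ndufs8 (0.0042), Ndufaf1 (-0.16), Ndufaf2 (0.17), Ndufaf3 (-0.35), Ndufaf5 (-0.0026), Ndufaf7 (0.85), Ndufaf8 (0.24), Ndufa4 (0.27), Ndufa4l2 (-0.11), Ndufa8 (0.22), Ndufb6 (0.44) and Ndufa2 (-0.081). Array weights gave -0.052 for Ndufs3, a repeated quantile normalization 0.018 for Ndufs8, and the mean of all probe sets 0.11 for Ndufs8 and 0.25 for Ndufb8. Leaving out single arrays gave ranges across 0 for Ndufs3 (-0.048 to 0.17), Ndufs8 (-0.11 to 0.094), Ndufaf1 (-0.13 to 1.33), Ndufaf3 (-0.42 to 0.26), Ndufaf4 (-0.37 to 0.35), Ndufaf7 (-0.60 to 0.53), Ndufaf8 (-0.41 to 0.25), Ndufab1 (-0.54 to 0.13), Ndufa4 (-0.55 to 0.072), Ndufa4l2 (-0.018 to 0.13), Ndufa6 (-0.0071 to 0.65), Ndufa1 (-0.035 to 0.34) and Ndufa2 (-0.014 to 0.17). The replicate numbers shared by the groups were not treated as pairs in the main fit. Deviations of like-numbered arrays correlated at 0.0798, 0.141 and 0.0811, and those of unlike-numbered arrays at -0.0872 to -0.00909. Each array thus correlated best with its own number, and the labels do not say whether the numbers mark pairs. With the replicate number as a block, 0 probe sets were called and 2017 had an unadjusted p under 0.05 (4.48%, against 3.71% without the block). In that fit 20 of 34 subunits and 4 of 8 assembly factors were lower in LRC.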
